A study of Mus musculus with 11 samples.

Results

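The HA-Zmiz1 peaks are the sites at which MACS2 found more reads after precipitation of HA-tagged Zmiz1 than in the matched input DNA of the same mouse T-cell leukaemia line. Every peak of that library was taken, which gave 4984 peaks of the 27054 listed for the 5 factor libraries of the series. They are described here over 21887 protein-coding genes of the mm10 genome (RefSeq, GRCm38.p6). Cells of the parent line, derived from a mouse T lymphoblastic leukaemia/lymphoma, carried a retroviral epitope-tagged Zmiz1 marked by NGFR and an activated Notch1 marked by GFP, and were sorted for both markers. The HA line is HA-Zmiz1/DEGFDLNRDP, with libraries for HA-Zmiz1, ICN1 and input. The Flag line is Flag-Zmiz1/L1601PDP, with libraries for Flag-Zmiz1, ICN1, Rbpj, H3K4me1, H3K4me3, the 2 H3K27 marks and input. All 11 samples therefore carry a transduced Zmiz1 and a transduced activated Notch1, and the series analysed here has no line without them. Each of the 11 groups is 1 library, so replicate error is unknown for every value and no p-value is given.

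Zmiz1 is a PIAS-like transcriptional coactivator, a protein that binds transcription factors and helps them to activate genes. Notch1 is a cell-surface receptor whose intracellular part, ICN1, is released by cleavage, enters the nucleus and activates target genes by binding the DNA-binding protein Rbpj. Thymocytes need Notch1 to enter the T lineage, and activated Notch1 is a common driver of T-cell leukaemia. H3K4me3 is a histone mark found mainly at active promoters and H3K4me1 one found at enhancers.

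The HA-Zmiz1 peaks come from 15322650 filtered tags against 26791332 for input, and the headers name pooled reads, so repeat precipitations could not be compared. Rbpj and all histone libraries come from the Flag line, so HA-Zmiz1 peaks are set against chromatin of the other line, and tag, Notch1 construct and line cannot be told apart. The H3K27 libraries go against their labels. The library labelled H3K27me3 lay over an end of 18 of 20 housekeeping genes and 1 of 30 developmental regulators, and the library labelled H3K27ac over 0 of 20 and 25 of 30. Both are named as labelled throughout. H3K4me3 lay over an end of 4 of 4 CD3 genes, against 2 of 12 B-lineage and 1 of 12 myeloid genes; the label is T lymphocyte.

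Pileup is the number of overlapping tags at the summit of a peak, and fold is the authors' enrichment over local input. The HA-Zmiz1 pileups were low. The quartiles were 10, 12 and 15 tags and the range was 6 to 126. Peak width had a median of 116 bp (63 to 943) and fold a median of 6.53 (1.75 to 25.1). In 32 of the 4984 peaks (0.642%) the local input was itself at least 10 times the library mean, and these are called high-input peaks. Shares carry exact (Clopper-Pearson) 95% intervals, which cover counting error only.

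Promoters under the tallest peaks were read for short sequence motifs. Of 21238 promoter windows (250 bases before to 50 after a start) of coding genes, 594 (2.8%) lay under a HA-Zmiz1 peak, and those belonged to 554 genes. Among the windows ranked, the tallest overlapping peak was at 4931408C20Rik with a pileup of 39. It was a high-input peak with 28.8 times the mean input and a fold of 2.52, and its sequence is not shown. The next 4 windows belong to Ptpn22, a phosphatase that restrains T-cell receptor signalling, Dctpp1, which hydrolyses dCTP, Dclre1c, the Artemis nuclease that opens DNA hairpins in receptor gene recombination, and Aaas, a nuclear pore protein. Their RefSeq sequences (GRCm38.p6) are printed 5′ to 3′ on the gene's strand, with matches to 6 short motifs on either strand in capitals.
Ptpn22: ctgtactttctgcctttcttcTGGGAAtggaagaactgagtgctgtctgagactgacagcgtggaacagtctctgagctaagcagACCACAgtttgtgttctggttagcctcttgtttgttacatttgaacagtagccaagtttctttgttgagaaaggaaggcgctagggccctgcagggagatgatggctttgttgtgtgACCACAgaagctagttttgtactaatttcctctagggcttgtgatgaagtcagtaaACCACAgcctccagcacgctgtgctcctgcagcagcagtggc
Dctpp1: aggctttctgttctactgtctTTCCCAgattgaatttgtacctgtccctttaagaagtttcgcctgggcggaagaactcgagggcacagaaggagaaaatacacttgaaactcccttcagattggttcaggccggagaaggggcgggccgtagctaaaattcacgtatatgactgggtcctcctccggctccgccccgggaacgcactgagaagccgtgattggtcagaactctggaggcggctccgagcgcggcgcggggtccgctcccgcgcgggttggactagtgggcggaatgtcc
Dclre1c: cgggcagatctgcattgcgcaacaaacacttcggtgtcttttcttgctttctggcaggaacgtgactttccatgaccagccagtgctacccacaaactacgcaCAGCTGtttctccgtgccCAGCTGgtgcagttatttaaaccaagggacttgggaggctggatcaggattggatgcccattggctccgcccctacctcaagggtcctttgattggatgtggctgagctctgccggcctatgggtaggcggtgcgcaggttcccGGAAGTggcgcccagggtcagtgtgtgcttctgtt
Aaas: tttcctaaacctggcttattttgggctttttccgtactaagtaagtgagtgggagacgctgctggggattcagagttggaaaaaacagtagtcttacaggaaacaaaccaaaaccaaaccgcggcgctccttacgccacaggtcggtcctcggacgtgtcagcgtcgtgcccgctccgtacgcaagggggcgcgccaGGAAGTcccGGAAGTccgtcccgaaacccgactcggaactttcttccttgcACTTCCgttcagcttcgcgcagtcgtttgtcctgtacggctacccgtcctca

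The Ptpn22 window is chr3:103860027-103860326 (+ strand), and its peak had a pileup of 23 and a fold of 11.3, with the summit 73 bp before the start. It holds the Rbpj core TGGGAA once and the Runx core, as its reverse complement ACCACA, at 3 places. The Dctpp1 window is chr7:127260618-127260917 (− strand), with a pileup of 22, a fold of 8.47 and the summit 262 bp before the start, and it holds TTCCCA, the reverse complement of the Rbpj core. At Dclre1c, chr2:3423881-3424180 (+ strand), the pileup was 21 and the fold 11.1, and the window holds the E-box CAGCTG at 2 places and the Ets letters GGAAGT once. At Aaas, chr15:102350710-102351009 (− strand), the pileup was 21 and the fold 6.69, the summit lay 22 bp before the start, and the Ets letters occur 3 times, once as ACTTCC. All 4 peaks overlapped Rbpj and none overlapped ICN1 of the HA line. Motifs were searched in the whole window, so a match need not lie under the peak. The Rbpj core at Ptpn22 and the Ets letters at Dclre1c lie outside their peaks.

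Over all windows under peaks, Ets letters were the commonest of the 6 motifs. GGAAGT or ACTTCC was present in 39.7% of the 594 windows (35.8 to 43.8%), against 24.8% of all 21238. The Myc E-box CACGTG was present in 10.4% (8.1 to 13.2%) against 7.84%, and the E-box CAGCTG in 15.8% against 15.6%. The other motifs were less frequent in windows under peaks than in all windows. These were the Rbpj core TGGGAA with 20.2% (17.0 to 23.7%) against 24.5%, the Runx core TGTGGT with 11.95% (9.45 to 14.8%) against 14.97%, and the Gata letters AGATAA with 5.72% (3.996 to 7.91%) against 9.65%. CAGCTG and CACGTG are their own reverse complements, and the Rbpj and Ets letters can share bases. Base composition moved with these shares, since median GC content was 63.3% under peaks against 56.3% in all windows, and its part in them was not tested.

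HA-Zmiz1 peaks lay near a minority of genes, and near few of them in number. A peak lay within 50 kb of the span of 6094 of 21887 coding genes (27.8%, 27.2 to 28.4%) and inside the span of 1830 (8.36%). Exactly 1 peak was near 3598 genes, 2 near 1368, 3 near 568 and 4 near 253. The 307 genes with 5 or more made up 1.4% of all coding genes, and the most for any gene was 13. Of the 4984 peaks, 4315 (86.6%) were within 50 kb of a gene, with a median of 2 genes per peak and as many as 16, so neighbouring genes share peaks. Genes with peaks were slightly longer. The median span was 15.7 kb with no peak, 19.96 kb with 1, 23.9 kb with 2 to 4 and 22.1 kb with 5 or more.

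**Figure D1:**
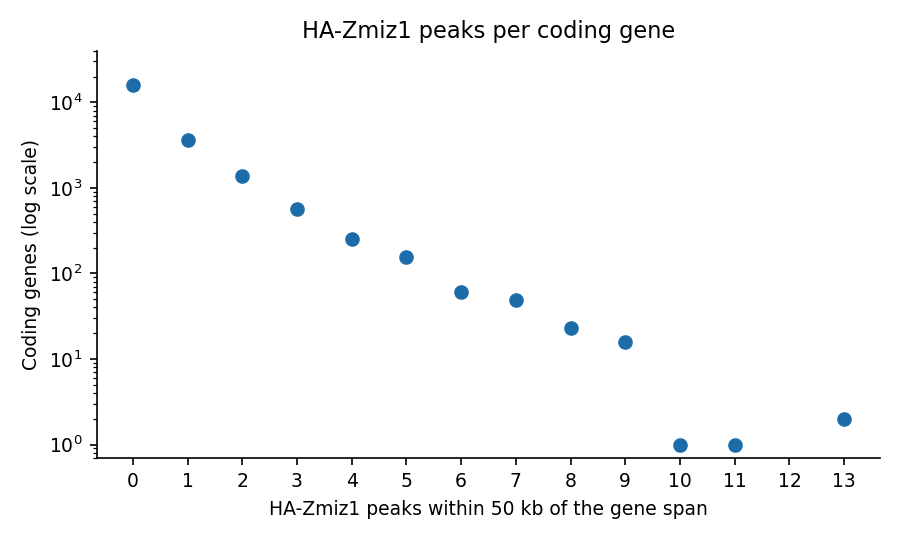
The x axis gives the number of HA-Zmiz1 peaks within 50 kb of a gene span and the y axis, on a log scale, the number of coding genes with that number. The counts run down to 16 genes with 9 peaks, 1 each with 10 and 11, and 2 with 13.

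The 20 genes with most peaks were led by Clec16a, an autophagy regulator, and Nck2, an adaptor that links tyrosine kinases to actin, with 13 each. Clec16a has a span of 200 kb, and 10 of its 13 peaks lay inside it, with pileups of 6 to 23 in the whole window. At Nck2, 9 of 13 lay inside, and all 13 were in H3K4me3. Cd8b1 and Cd8a, the chains of the CD8 co-receptor, had 11 and 9, most of them shared. Ncald, a neuronal calcium sensor, had 10, all inside its own span of 426 kb. Some counted peaks are close neighbours, such as chr16:10700163-10700279 and chr16:10700343-10700424 at Clec16a. Counts of peaks are therefore not counts of separate sites.

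The other genes of the 20 had 9 peaks each. Ikzf1 and Ikzf3 encode Ikaros and Aiolos, zinc finger factors of lymphoid development, and each had 7 of 9 inside the gene. Cd3e, a signalling chain of the T-cell receptor complex, had 1 of 9 inside its span of 10.9 kb. Rapgef3, a cAMP-activated exchange factor, Tbc1d22a, and Ptk2, the focal adhesion kinase, are on chromosome 15, as is Ncald. Tex14, a protein of germ-cell bridges, differed from the rest in its chromatin, with 1 of 9 peaks in H3K4me3 and 7 of 9 at Rbpj, whereas the other 19 genes had 7 or more peaks in H3K4me3. Its tallest pileup was 26 and its best fold 16.5.

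The remaining 8 of the 20 were histone genes, H1f2, H2bc3, H3c3, H1f5, H2ac15, H2bc15, H3c11 and H4c12, all on chromosome 13. Histone genes were counted as a class because they stood among the 20, so their shares describe that ranking and are no test. The class held the 67 genes with H1f, H2ac, H2bc, H3c and H4c symbols. Over the genome 62 of these 67 (92.5%) had a peak within 50 kb, against 27.8% of all coding genes. Of the 67, 42 (62.7%) had 5 or more, against 1.4%. Those counts repeat the same peaks, because the 53 histone genes of chromosome 13 lie close together and share 29 distinct peaks. Of the 29, 24 were within 1 kb of a gene end, 27 were in H3K4me3, 14 overlapped Rbpj and 0 overlapped ICN1. Pileups were 7 to 22 with a median of 11. Genes of 1 histone family can be close copies, so the counts of single genes are uncertain; how reads divided among copies was not measured here.

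Genes with several peaks more often had one that also carried ICN1 of the same line. Of 21887 genes, 507 (2.32%) had such a shared peak within 50 kb. The share was 3.28% (2.72 to 3.91%) of genes with 1 peak, 13.5% of those with 2 to 4 and 30.3% (25.2 to 35.8%) of the 307 with 5 or more. A gene with more peaks has more chances to meet ICN1, so this is a description of the counts.

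Gene lists were read against the 27.8% of all coding genes. In the T-cell receptor complex all 4 CD3 genes had a peak, and the co-receptor and surface list had 19 of 21 (90.5%, 69.6 to 98.8%). Receptor signalling had 20 of 25, T-lineage transcription factors 25 of 32, trafficking and adhesion 16 of 18, and receptor recombination 6 of 6. Cytokine receptors and the Jak-Stat pathway had 15 of 25 and cell cycle and survival 14 of 24. Housekeeping genes had 10 of 20 (50%, 27.2 to 72.8%). The intervals of these housekeeping genes, of B-lineage genes with 5 of 12, of myeloid genes with 4 of 12 and of the Notch pathway with 11 of 30 (36.7%, 19.9 to 56.1%) included 27.8%, as did that of the Zmiz and Pias family with 4 of 6, and developmental regulators had 2 of 30 (6.67%, 0.818 to 22.1%). In all, 152 of the 262 distinct genes of the 14 lists had a peak. Neighbouring genes of a list can share peaks, and the intervals do not allow for this. The median was 7 peaks per CD3 gene, 2 for co-receptors, signalling, transcription factors and trafficking, and 0 for all coding genes.

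**Figure D2:**
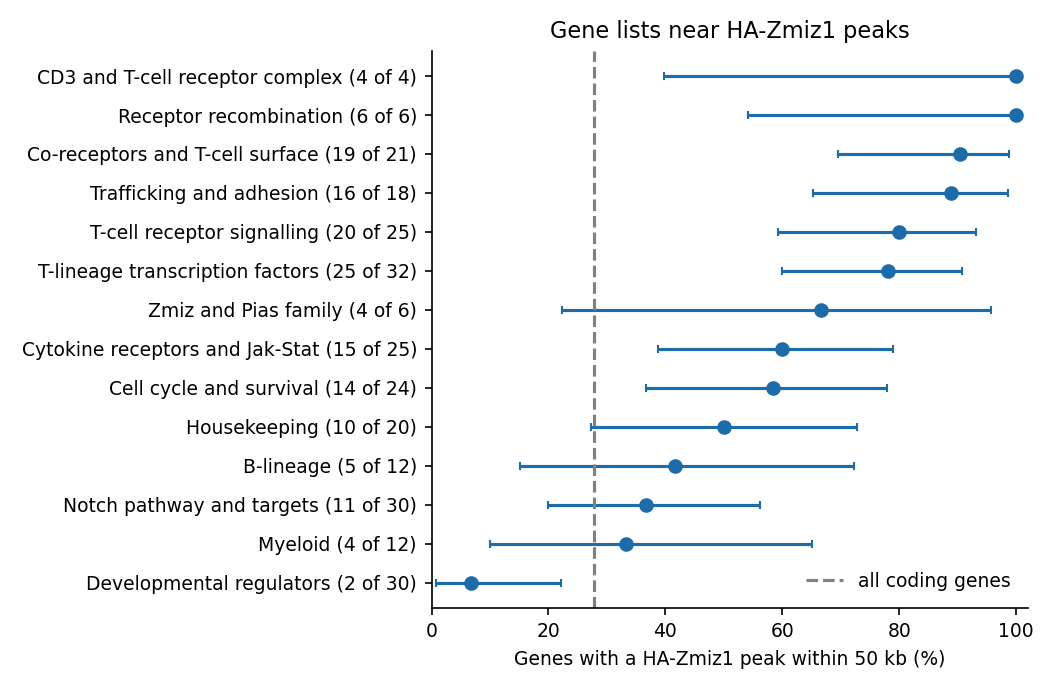
Each point is the share of a gene list with a HA-Zmiz1 peak within 50 kb, with its exact 95% interval, and the dashed line marks the 27.8% of all coding genes. CD3 and recombination genes stand at 100%, developmental regulators at 6.67%.

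At the receptor complex, Cd3d, Cd3e and Cd3g are neighbours on chromosome 9 and shared their peaks. The list had 10 distinct peaks, 9 of them at Rbpj, 6 within 1 kb of a gene end and none at ICN1. Cd3e had summits with pileups of 20, 14, 10, 12, 14, 8, 18, 14 and 10 along its window, with folds of 4.20 to 8.86. Cd247, the zeta chain, had 1 peak inside the gene with a pileup of 11.

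Around the co-receptors the tallest peaks lay outside the genes. The CD8 genes had a peak with a pileup of 33 and a fold of 14.3 at chr6:71369421-71369762, 3.78 kb from the nearest gene end and at both Rbpj and ICN1. Cd4 had 5 peaks, and the tallest, with a pileup of 41 and a fold of 15.5, lay 12.4 kb outside its span and 3.73 kb from Lag3, an inhibitory receptor that binds MHC class II; Cd4 was chosen after its values were seen. Thy1, a thymocyte surface glycoprotein, and Cd28, a costimulatory receptor, had 6 each. The early activation antigen Cd69 and the SLAM-family receptor Ly9 had none, and their nearest peaks were 56.6 and 85.5 kb away.

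Signalling genes downstream of the receptor were led by Sla, an adaptor that lowers receptor levels, with 7 peaks. Grap2, an adaptor that binds Lcp2, and the kinase Prkcq had 5 each. The exchange factor Vav1 and the phosphatase Ubash3a had none, with the nearest peak 561 and 905 kb away. Within 50 kb of them lay 8 and 6 Rbpj peaks, and 14708 of all 21887 coding genes had an Rbpj peak at that distance.

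Among cytokine receptors Il2ra, which makes the interleukin-2 receptor high-affinity, had 7 peaks with pileups of 10 to 19 and a best fold of 12.4. Of these, 4 overlapped Rbpj and none ICN1. Il21r and Stat5a had 6 each and Stat3 5, with 1 of them at ICN1 in each window. Stat5a and Stat3 are neighbours on chromosome 11 and share the peak at ICN1. Il7r, the interleukin-7 receptor chain needed for thymocyte survival, and Il2rb had none. The nearest HA-Zmiz1 peak to Il7r was 937 kb away, and 6 Rbpj peaks lay within 50 kb of it.

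T-lineage transcription factors were covered widely. After Ikzf1 and Ikzf3 came Runx1 and Ets1 with 8 peaks each, 7 of them inside each gene. In Ikzf1 the tallest peak had a pileup of 32 and a fold of 12.2, and the only one at ICN1 had 20. Gata3 and Bcl11a, both factors of early lymphoid cells, had none within 50 kb. Over the list, 94 distinct peaks were counted, of which 70 overlapped Rbpj and 4 ICN1.

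The Notch list was uneven. Ccnd3, a D-type cyclin required in dividing thymocytes, had 5 peaks inside its span with pileups of 9, 9, 19, 27 and 47, and the last 2 overlapped ICN1. The adhesion receptor Cd44 had 5, Ptpn22 had 4, and Igf1r, a growth factor receptor, had 3. Notch3, a Notch receptor that is itself a Notch1 target, had 2. Its peak inside the gene reached a pileup of 38 and a fold of 14.4 and overlapped ICN1. Dtx1, an E3 ligase induced by Notch, had 1 with a pileup of 12 and a fold of 4.79, also at ICN1.

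Several genes at the centre of the pathway had no HA-Zmiz1 peak within 50 kb. These were Notch1, Notch2, Rbpj, Myc, Hes1 and Ptcra, the pre-T-cell receptor alpha chain. The nearest peak was 106 kb from Notch1, 174 kb from Myc, 249 kb from Hes1, 473 kb from Rbpj and 744 kb from Ptcra. Rbpj peaks lay within 50 kb of Notch1 (7), Myc (6), Rbpj (6) and Ptcra (4), and 0 at Hes1. Over all 21887 coding genes, 14708 had an Rbpj peak within 50 kb. At these pileups an occupied site below the calling limit cannot be told apart from an empty one.

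Zmiz1 had 1 peak, inside its own span at chr14:25517335-25517571, with a pileup of 12 and a fold of 6.06, and it overlapped Rbpj. Its relatives Zmiz2 and Pias1 had 1 each and Pias4 had 2, with tallest pileups of 8 to 13, and Pias2 and Pias3 had none. The Pias proteins are SUMO ligases related to Zmiz1. None of the 6 genes, Zmiz1 included, had a peak with −log10 p of 10 or more, against 16.6% of all coding genes. Within 5 kb 1 of the 6 had a peak, against 12.1%, and 6 genes are too few to be told apart from these shares.

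Peaks also lay near genes of cell movement, division and recombination. Ccr9, a thymus-homing chemokine receptor, and Rhoh, a GTPase of T-cell signalling, had 7 peaks each, and the chemokine receptors Cxcr4 and Ccr7 had 4. S1pr1, the receptor for thymic exit, and Coro1a had none. E2f2, a cell cycle transcription factor, had 7 with a tallest pileup of 34, Bcl2l1, an inhibitor of apoptosis, 4 and Cdk6 3, whereas Ccnd1 and Ccnd2 had none. Rag1 and Rag2, the recombinase subunits, shared 4, Lig4, the ligase of end joining, had 4, and Dntt, which adds untemplated bases, had 3.

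Within 5 kb of the gene, 0 of 12 B-lineage and 1 of 12 myeloid genes had a peak, against 12.1% of all coding genes. The 3 peaks of Blnk, a B-cell adaptor, were 25.1 kb away or farther and are those of its neighbour Dntt on chromosome 19, with the same tallest pileup of 27. Itgam, an integrin of myeloid cells, had 6 peaks, 2 of them inside, and a best fold of 19.7. Ebf1 and Cd79b had 1 each outside the gene. Mpo had 3, the nearest 38.9 kb away, and that peak is also the nearest to the microRNA gene Mir142. Ly6g and Elane had 1 each, 38.4 and 38.7 kb away, and Ms4a1, Pax5, Lyz2 and Csf1r had none. Among housekeeping genes Actb had 4, Hsp90ab1 3 and Tubb5 2, and Gapdh and Rplp0 none. Of the developmental regulators Otx2 had 2, and Hoxa9 and Hoxa10 had none.

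Peaks were grouped into clusters by joining those closer than the stitching distance often used for super-enhancers, which is given with the processing. This gave 3801 groups, of which 2958 were single peaks, 617 pairs, 161 of 3, 41 of 4 and 24 of 5 or more. Close neighbours that may belong to the same site were counted as separate peaks. Clusters of 2 or more held 2026 of the 4984 peaks (40.7%, 39.3 to 42.0%) and those of 3 or more held 792 (15.9%). The median span was 8.53 kb for the 226 clusters of 3 or more, and the widest was 37.9 kb. Of the 226, 217 held a peak at Rbpj and 210 had every peak in H3K4me3. A gene end was touched within 1 kb by 55, and 62 (27.4%, 21.7 to 33.7%) held a peak at HA-line ICN1. Of single peaks over the whole library, 71.3% were at Rbpj, 93.2% in H3K4me3, 18.6% within 1 kb of a gene end and 5.92% at HA-line ICN1. A cluster of several peaks has more chances to hold one at Rbpj, ICN1 or a gene end, so these counts are a description.

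**Figure D3:**
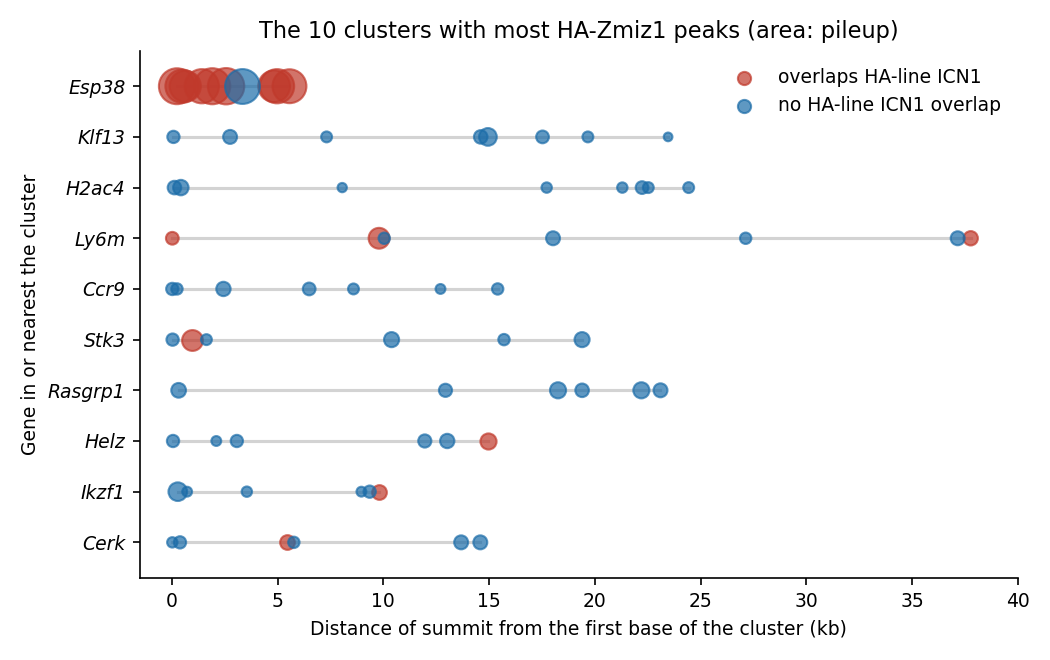
Summits in the 10 clusters with most HA-Zmiz1 peaks are placed by distance in kb from the cluster's first base, with the area of a point showing its pileup and red marking overlap with HA-line ICN1. The cluster nearest Esp38 has 10 high-input peaks in 5.61 kb, and the others have pileups of 7 to 40 spread over 9.97 to 37.9 kb.

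The cluster with most peaks was a high-input place. It lay at chr17:39843203-39848813, 105 kb from Esp38, with 10 peaks of pileup 90 to 122 and fold up to 3.03, 0 of 10 in H3K4me3 and 9 of 10 at ICN1. The other leading clusters had no high-input peak. A cluster of 8 lay at chr7:63984413-64007898, 57.2 kb from Klf13, a zinc finger factor, with pileups of 7 to 29, 6 at Rbpj and none at ICN1. The other cluster of 8 covered 9 histone genes around H2ac4 on chromosome 13, with all 8 within 1 kb of a gene end.

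Clusters of 7 lay beside Ly6m, a gene of the Ly6 surface protein family, and at Ccr9. The Ly6m cluster on chromosome 15 had pileups of 12 to 40 and 3 peaks at ICN1, and that at Ccr9 had pileups of 9 to 19 and none at ICN1. Clusters of 6 lay inside Stk3, a Hippo pathway kinase, with pileups of 11 to 40, inside Helz, a helicase, inside Ikzf1, and inside Cerk, the ceramide kinase, each with 1 peak at ICN1. A cluster of 6 with pileups of 16 to 24 lay 68.1 kb from Rasgrp1, a Ras exchange factor of T-cell receptor signalling, and had none at ICN1. Every peak of the 9 clusters without high input was in H3K4me3, and every peak of the 8 among them other than the histone cluster was in H3K4me1.

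Pileup differed little with cluster size. The median was 12 for single peaks, 13 in clusters of 3 and 14 in clusters of 5 or more, or 13 in the last without high-input peaks. H3K4me1 covered 78.9% (77.4 to 80.3%) of single peaks, 92.7% (87.6 to 96.2%) of peaks in clusters of 4 and 83.4% (76.4 to 89.1%) in clusters of 5 or more, or 89.2% in the last without high-input peaks. The share within 1 kb of a gene end was 21.8% (20.3 to 23.3%) for single peaks, 15.9% in pairs and 16.6% (10.9 to 23.6%) in clusters of 5 or more. Rbpj overlap ran from 70.2 to 75% over the sizes.

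Most HA-Zmiz1 peaks were away from gene ends. The median distance of a summit to the nearer end of any coding gene was 14.5 kb. Within 1 kb lay 929 peaks (18.6%, 17.6 to 19.7%), within 10 kb 43.7% and within 50 kb 76.4%, and 604 (12.1%) were over 100 kb away. Inside a gene span lay 2537 (50.9%), among them 1399 (28.1%) over 10 kb from any end. Near gene ends the 5′ side prevailed. Of genes with a known strand, a 5′ end lay within 1 kb of 678 peaks and a 3′ end within 1 kb of 128, of which 78 were at no 5′ end. Of 753 peaks within 1 kb of an annotated start, 477 (63.3%, 59.8 to 66.8%) had the summit upstream, and the median position was 46 bp before the start.

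Among the 5 factor lists, HA-Zmiz1 was farther from gene ends than Rbpj and nearer than the lists of the Flag line other than Rbpj. The share within 1 kb was 18.6% for HA-Zmiz1, against 5.16% (3.51 to 7.29%) for Flag-Zmiz1, 15.2% (11.9 to 19.0%) for HA-line ICN1, 0% (0 to 4.4%) for Flag-line ICN1 and 44.3% for Rbpj. Median distance was 14.5 kb for HA-Zmiz1 against 30.03, 16.7, 107 and 1.86 kb in that order of the other lists. Shares in clusters of 2 or more were 40.7% for HA-Zmiz1, against 8.43%, 15.9%, 51.2% and 64.8%. The lists hold 4984, 581, 414, 82 and 20993 peaks, and the part of list length in these shares was not tested.

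The tallest peaks by pileup were places of high input. The first 28 of the ranking were all high-input peaks. The 20 tallest had pileups of 93 to 126, where 126 is the ceiling set by 1 tag per position and strand at a fragment length of 63 bp. Their local input was 62.0 to 129 times the library mean, and their folds were 1.75 to 3.03. They fell in 7 places. The nearest genes were Gm2244, Rpusd4, Alkbh8, Esp38, Lrrc4c, Pex2 and Ly6c2; 2 of the 20 peaks lay within 50 kb of a gene and none inside one. All 20 overlapped Rbpj, Flag-Zmiz1, Flag-line ICN1 and the library labelled H3K27ac, and 18 overlapped HA-line ICN1. Of the 27 HA-Zmiz1 peaks that overlapped Flag-Zmiz1, 25 were high-input peaks and 2 were not.

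**Figure D4:**
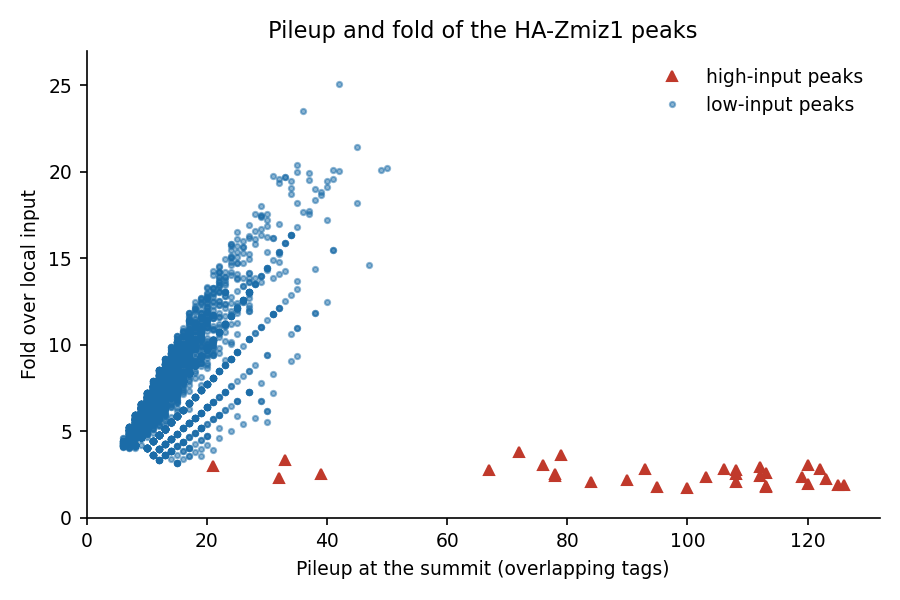
Each point is a HA-Zmiz1 peak, with pileup at the summit on the x axis and fold over local input on the y axis; triangles are the 32 high-input peaks. High-input peaks reach a pileup of 126 with folds of 1.75 to 3.78, and low-input peaks reach 50 with folds up to 25.1.

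Among the 4952 low-input peaks, none of the 20 tallest lay within 1 kb of a gene end. The 20 tallest had pileups of 38 to 50, folds of 12.47 to 25.1 and local input of 1.39 to 4.43 times the mean. In other libraries 19 overlapped Rbpj, 11 HA-line ICN1, 19 H3K4me3, 19 H3K4me1 and 20 the library labelled H3K27me3, and 0 overlapped Flag-Zmiz1 or the library labelled H3K27ac. Over all 4984 peaks the shares were 71.3% for Rbpj, 5.92% for HA-line ICN1, 93.2% for H3K4me3, 82.8% for H3K4me1 and 93.6% for that labelled H3K27me3. Inside a gene lay 10 of the 20 and within 50 kb of one lay 16, against 50.9% and 86.6% of all peaks. The share of all peaks within 1 kb of a gene end was 18.6%, and the nearest of the 20 to an end was 1.63 kb away. In clusters of 2 or more lay 17, against 40.7% of all peaks, and 6 were on chromosome 15, which held 299 of the 4984.

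The tallest 2, with pileups of 50 and 49 and folds of 20.2 and 20.1, lay at chr15:63255551-63256093 and chr15:63279576-63280195. They were 520 and 496 kb from the nearest coding gene, Gsdmc, a gasdermin, and 1266 and 1290 kb beyond Myc, the growth-promoting transcription factor. Distal enhancers of Myc are known on that side of the gene, and no contact between these sites and Myc was measured here. The third, with 47 tags, was that inside Ccnd3.

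Next came a peak of 45 inside Adamts14, a procollagen-processing protease, and one of 45 inside Xrcc6, the Ku70 DNA end-binding protein. Aff1, a subunit of the super elongation complex, held the peak with the highest fold of the whole library, 25.1 at a pileup of 42 and 1.39 times the mean input, and it was the one of the 20 outside H3K4me3. A peak of 42 near Ptgr2, a prostaglandin reductase, was the one without Rbpj. The others were at or near Atl2, Rnf166, Mad1l1 and Lag3 (41 each), Ly6m, Rcbtb2, Stk3 and Exoc5 (40), Dad1 and Anxa2 (39), and Colq, Spag1 and Notch3 (38).

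HA-Zmiz1 peaks lay in marked chromatin almost throughout. H3K4me3 segments covered 4645 of 4984 (93.2%, 92.5 to 93.9%), H3K4me1 82.8% (81.7 to 83.8%), the library labelled H3K27me3 93.6% and the library labelled H3K27ac 1.93% (1.56 to 2.35%). The first 3 of these together held 3752 (75.3%), and 55 peaks (1.1%) lay outside them and outside Rbpj. Rbpj overlapped 3556 (71.3%, 70.1 to 72.6%), which is 16.9% of the 20993 Rbpj peaks. ICN1 of the same line overlapped 295 (5.92%, 5.28 to 6.61%), and conversely 302 of the 414 ICN1 peaks (72.9%, 68.4 to 77.2%) held a HA-Zmiz1 peak. HA-Zmiz1 and HA-line ICN1 share an input library. Flag-Zmiz1 overlapped 27 peaks (0.542%).

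**Figure D5:**
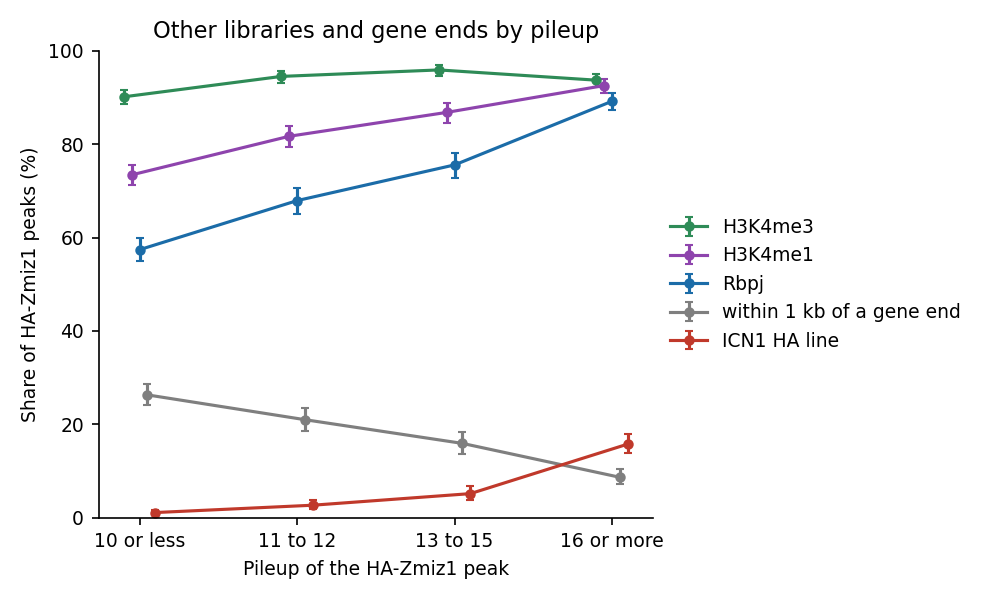
Lines give the share of HA-Zmiz1 peaks that overlap each library or lie within 1 kb of a gene end, by 4 classes of pileup, with exact 95% intervals. At a pileup of 10 or less, overlap is 57.4% with Rbpj and 1.13% with HA-line ICN1, and at 16 or more it is 89.2% and 15.8%.

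Taller peaks more often overlapped Rbpj and HA-line ICN1 and were farther from gene ends. Rbpj overlap was 57.4%, 67.9%, 75.6% and 89.2% at pileups of 10 or less, 11 to 12, 13 to 15 and 16 or more. In the same classes HA-line ICN1 overlap was 1.13%, 2.70%, 5.18% and 15.8%, and H3K4me1 73.4%, 81.7%, 86.8% and 92.6%. The share within 1 kb of a gene end ran the other way, with 26.3%, 21.0%, 15.9% and 8.67%. Without high-input peaks the highest class had 88.99% with Rbpj, 14.2% with ICN1 and 94.3% with H3K4me1. Flag-Zmiz1 overlapped 0 to 0.174% of peaks in every class once high-input peaks were left out. H3K4me3 stayed between 90.1% and 95.9%. Intervals of the lowest and the highest class did not overlap for Rbpj, ICN1, H3K4me1 or gene ends. Peaks of 1 library are not replicates, so this is a description and no test. The part of peak width in these overlaps was not tested.

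Peaks at gene ends and away from them differed most in H3K4me1. Within 1 kb of an end it covered 37.0% (33.9 to 40.2%), against 88.8 to 97.0% in each class beyond. H3K4me3 covered 98.5% within 1 kb and still 90.1 to 92.8% in the classes beyond. Peaks in H3K4me3 without H3K4me1 numbered 762, of which 580 (76.1%) were within 1 kb of a gene end. Rbpj overlapped 84.8% (82.4 to 87.1%) within 1 kb and 64.4 to 69.2% beyond. HA-line ICN1 overlapped 3.12% (2.10 to 4.45%) within 1 kb and 8.44% (6.35 to 10.95%) over 100 kb, or 5.35% (3.67 to 7.51%) there without the high-input peaks.

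Wide segments of H3K4me3, H3K4me1 and the library labelled H3K27me3 held the peaks more densely than narrow ones, and those labelled H3K27ac did not. H3K4me3 segments under 2 kb carried 53.1 HA-Zmiz1 summits per Mb, those of 2 to 10 kb 72.3 and those of 10 kb or more 107. For H3K4me1 the densities were 3.53, 14.7 and 38.9 per Mb in the same order of widths, for the library labelled H3K27me3 12.3, 30.6 and 57.05, and for that labelled H3K27ac 5.41, 0.501 and 0.727, the first of these from 7 summits. A HA-Zmiz1 peak lay in 191 of 259 H3K4me3 segments of 10 kb or more (73.7%, 67.9 to 79.0%), against 6.19% of 12824 under 2 kb. Counted once for each of 4077 summits, H3K4me1 segments under summits had a median width of 10.8 kb, against 2.8 kb for all 46130 segments. A wide segment has more bases in which to meet a peak. These last shares and widths, unlike the densities, take no account of that.

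By chromosome, chromosome 15 stood out. It had 24.5 HA-Zmiz1 peaks per 100 H3K4me3 segments, against 15.9 to 21.1 on the other 18 autosomes and 5.88 on X. Genes of chromosome 15 made up 24 of the 307 genes with 5 or more peaks (7.82%, 5.07 to 11.4%), against 3.55% of all coding genes. Neighbouring genes share peaks, and chromosome 15 was picked as the highest autosome. The interval allows for neither. Other measures moved with the count of peaks on chromosome 15. Median local input was 2.32 times the mean against 1.69 to 2.11 on the other autosomes, median pileup 14 against 11 to 12, and control reads of the Flag line 32.8 per kb of H3K4me1 segment against 22.8 to 24.1. Rbpj had 101 peaks per 100 H3K4me3 segments against 64.5 to 88.6. Median fold, which divides by local input, was 6.17 on chromosome 15 and 6.32 to 6.83 on the others. The part of the higher input in the count of peaks was not tested.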

How the data were processed

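Chromatin immunoprecipitation and sequencing was done on 11 samples of a mouse T-cell leukaemia line, with 1 library per group. MACS2 2.0.10, SICER 1.1, Bowtie 0.12.7, HOMER 4.2 and FastQC 0.10.0, with mm10, appear in the submitters' processing notes. Per the file headers, each factor library was set against the input of its line at p up to 1e-05, keeping 1 tag at a position, with local windows of 1000 and 10000 bp. The deposited values per peak are a pileup signal, a fold enrichment (a ratio) and a −log10 p. Histone segments hold deposited read counts, a fold and p-values made by the authors. These are the authors' own scores per region, used here only to describe, rank or filter within a list.

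From these, Python 3.11.15 with numpy 2.4.6, pandas 2.3.3 and scipy 1.17.1 counted peaks per gene span with 50 kb on each side, joined peaks within 12.5 kb and measured distances from summits to gene ends. Regions overlapped if they shared 1 bp. Local input is (pileup + 1) / fold − 1, in units of the mean background expected from tag number and fragment length; the limit of 10 for a high-input peak was known from earlier results. Factor chromatin was fixed with DSG and formaldehyde and histone chromatin with formaldehyde alone, per the labels' protocols, and HA was precipitated with Abcam ab9110. The counting steps were checked on simulated data. Genes came from RefSeq (13 mitochondrial genes left out), and 17469 coding genes had a promoter window with a strand; windows on chromosome 18 were not ranked for printing.

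The peaks, the 14 lists and the rules were chosen with earlier results of these data known. Genes named are the 20 with most peaks (ties by summed pileup), those nearest the 20 tallest peaks and at the 10 largest clusters, up to 4 per list with most peaks and the first 2 without, those of the 5 promoter windows under the tallest peaks, and Zmiz1, Notch1, Notch3, Rbpj, Myc, Hes1, Dtx1, Il7r, Il2ra and Ptcra. The genes nearest the 20 tallest low-input peaks are named from the alternative without high-input peaks. Some items that the rule covers are not reported here.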

Additional observations from a re-analysis of the deposited data

How the results depend on the processing

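No paired analysis was possible because each group is 1 library. Leaving out the high-input peaks left 6091 genes with a peak, 307 with 5 or more and 593 promoter windows. It moved the small overlaps, with Flag-Zmiz1 at 0.0404%, Flag-line ICN1 at 0.384% and the library labelled H3K27ac at 1.35%, and by construction left 0 high-input peaks among the 20 tallest. Ranked by fold or by −log10 p, the 20 leading peaks also included 0 high-input peaks, and 9 and 15 of them were among the 20 tallest low-input peaks.

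The window set the gene counts. Within 5 kb, 2650 genes had a peak and 55 had 5 or more; within 200 kb, 11520 and 2053. Joining at 5 kb gave 132 clusters of 3 or more. The 14 lists had 105 genes with a peak at 5 kb, where all genes had 12.1%, and 197 at 200 kb, where all genes had 52.6%. Myeloid genes, developmental regulators and the Notch list had 10, 9 and 19 at 200 kb. With the 2622 peaks of −log10 p 10 or more, 3634 genes had a peak, 56 had 5 or more, 79 clusters had 3 or more, 213 promoter windows lay under a peak and 13.6% of peaks were within 1 kb of a gene end. Only 7 of the 20 genes with most peaks were also among the 20 by that limit, where ties were taken in genome order and not by summed pileup. Overlaps there were 78.7% with Rbpj, 9.69% with HA-line ICN1, 1.45% with Flag-line ICN1, 0.839% with Flag-Zmiz1, 94.0% with H3K4me3, 87.8% with H3K4me1 and 94.8% with the library labelled H3K27me3.

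Requiring 50% of the peak to be covered gave 61.3% for Rbpj, 3.13% for HA-line ICN1, 0.622% for Flag-line ICN1 and 81.6% for H3K4me1. With the upper 50% of the other list by fold, overlap was 45.2% for Rbpj, 3.17% for HA-line ICN1, 0.461% for Flag-line ICN1, 0.0401% for Flag-Zmiz1, 48.3% for H3K4me3, 74.2% for H3K4me1, 81.4% for the library labelled H3K27me3 and 0.923% for that labelled H3K27ac; those lists are shorter. Without predicted, Rik and receptor-family genes, 5821 of 18636 genes had a peak. Depth limits all of this, since 31.9% of the peaks rest on 10 or fewer overlapping tags, and peaks of pooled reads in 1 library cannot show how many would recur.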

Other observations

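MicroRNA genes were not part of the coding gene counts. Of 1005 mouse hairpins in RefSeq (GRCm38.p6), 78 (7.76%, exact 95% interval 6.18 to 9.59%) had a HA-Zmiz1 peak within 10 kb. The genes below were chosen after their values were seen. Mir142, a microRNA abundant in blood cells, had 3 peaks within 10 kb. The nearest was 2016 bp from the hairpin at chr11:87756864-87756927, with a pileup of 13 and a fold of 8.09, and overlapped Rbpj. Mir212 and Mir132, at chr11:75173388-75173478 and chr11:75173682-75173747, lay 25 and 105 bp from the same peak, which had a pileup of 12, a fold of 8.27 and no Rbpj overlap. Mir15b and Mir16-2, on chromosome 3, lay 4783 and 4913 bp from a peak with a pileup of 11 and a fold of 7.24 at Rbpj.

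Their mature sequences are shown 5′ to 3′ because the neighbours share seeds, with the seed (bases 2 to 8) in capitals.
miR-212-3p: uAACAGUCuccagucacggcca
miR-132-3p: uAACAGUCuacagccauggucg
miR-15b-5p: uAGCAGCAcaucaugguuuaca
miR-16-5p: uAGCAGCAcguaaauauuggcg
miR-142a-3p: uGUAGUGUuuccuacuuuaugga
The pair at the shared chromosome 11 peak has the seed AACAGUC, and the chromosome 3 pair has AGCAGCA, a family known to target cell cycle genes. Each pair shares its nearest peak, so each counts as 1 site.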
